A study of Mus musculus with 4 samples.

Results

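The genes described here are 10 members of the ephrin and Eph receptor family: the ligands Efna5, Efnb1 and Efnb2, the A-class receptors Epha2, Epha4, Epha5 and Epha7, and the B-class receptors Ephb2, Ephb3 and Ephb4. They were followed position by position through maps of N6-methyladenosine (m6A), a methyl mark on adenosines of RNA, in mouse retinal organoids. The 4 deposited site tables place 855 different positions in these genes, out of 1076788 positions in all, of which 833043 lie in 20001 named genes. A position enters a table only when enough methylation was read there, so the positions are themselves chosen on the measured level, and which positions are listed in a library is given as a description.

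Organoids were grown from Rx:GFP cells carrying FKBP12F36V-HA at the C-terminus of the endogenous Mettl3 gene, so untreated and treated organoids both carried the tag. METTL3 is the enzyme that writes most m6A on mRNA. The compound dTAG13 recruits a ubiquitin ligase to FKBP12F36V so that the tagged protein is destroyed. At day 6, 2 samples had no dTAG13 (0 h, called untreated libraries 1 and 2) and 2 samples had 125 nM dTAG13 for 8 h (dTAG13 libraries 1 and 2), and the comparison asks what acute loss of METTL3 did to the marks. The labels give the 4 samples 1 shared batch, do not say whether replicates were separate cultures, and number the tagged gene Mettl3, Mettl4, Mettl5 and Mettl6 from sample to sample, whereas the growth text and the series text name Mettl3 throughout. Values of p therefore measure only the spread between these samples, which may be technical. Depletion of METTL3 protein was not measured in the tables.

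Ephrins and Eph receptors are both bound to cell membranes and signal at contacts between cells, into the receptor cell and back into the ligand cell. Ephrin-A ligands hang on the membrane by a lipid anchor and mostly bind EphA receptors, while ephrin-B ligands span the membrane and mostly bind EphB receptors. In the developing eye their opposing gradients divide the retina into nasal and temporal, dorsal and ventral fields and later steer retinal axons to their targets.

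In GLORI, the chemistry used here, glyoxal and nitrite turn unmethylated adenosine into inosine, which sequencers read as G, whereas m6A stays A. The level of a position is the percentage of A in its A plus G reads, and the conversion rate of a gene is the percentage of its adenosines read as G. Listing stopped at 15 reads, at 5 A reads, at levels under 10% and, in the authors' deposited tables, at adjusted p-values above 0.00401. Over all genes the libraries listed 335607 and 350462 positions without dTAG13 and 220034 and 263069 with it. Of 8 eye-field and progenitor genes fixed as markers, among them Rax, Pax6, Six3 and Lhx2, 8 had listed sites in all 4 libraries. Pluripotent-cell markers were also listed in all 4 (3 of 3 genes), with gene coverages of 59.0 to 191 and 75.1 to 221 without dTAG13 and of 67.6 to 167 and 64.5 to 170 with it. Neuron markers were listed in all 4 libraries for 2 of 4 genes, pigment epithelium markers for 2 of 3, mesoderm and endoderm markers for 1 of 4 and neural crest markers for 0 of 2. Their part in the results below was not tested, and fewer cells of a type and less RNA per cell cannot be told apart in these bulk samples.

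Fewer positions of the 10 genes were listed after dTAG13. Untreated libraries 1 and 2 listed 257 and 335 positions, and dTAG13 libraries 1 and 2 listed 148 and 213. Both treated libraries thus lay below both untreated ones, with means of 296 ± 55.2 and 180.5 ± 46.0 (SD, n = 2 each). The ratio was 0.610, where all positions of the series gave a ratio of 0.704. By an exact permutation test, two-sided, p was 0.33, the smallest that 2 libraries against 2 can reach. Strongly methylated positions, with a level of at least 50%, numbered 92 and 115 without dTAG13 and 61 and 74 with it. Again the groups did not overlap, with means of 103.5 ± 16.3 and 67.5 ± 9.19 (SD, n = 2 each), a ratio of 0.652 and the same exact permutation p of 0.33. Over all positions in genes the ratio was 0.714 for those listed and 0.788 for those of at least 50%. Strong positions made up 35.8% and 34.3% of the members' listed positions in the untreated libraries. In the dTAG13 libraries they made up 41.2% and 34.7%, so their share was not lower after dTAG13. Over all positions in genes, the untreated libraries gave 29.5% and 27.9% and the dTAG13 libraries 31.3% and 31.9%, also not lower. The members' share lay above this background in each library. Reads summed over the members' listed positions were 44440 and 49135 for the untreated pair against 16250 and 34302 for the treated pair. These sums move with the number of positions listed.

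Gene by gene, both dTAG13 libraries listed fewer positions than both untreated libraries in 5 of the 10 genes, namely Efna5, Efnb2, Epha2, Epha4 and Epha7, against a background of 47.4% of the 11891 genes tested. No gene of the 10 had more positions in both treated libraries than in both untreated ones (background 4.38%). In edgeR's quasi-likelihood test of site numbers, 0 of 10 genes passed an adjusted p of 0.05, and over all genes the background was 0.0% in each direction. Unadjusted p fell under 0.05, with fewer positions, in 4 of 10, against 21.0% of all genes, and with more positions in 0 of 10, against 0.446%. The same 0 of 10 came from limma on log2(sites + 1). With the total of listed positions in each library as an offset, edgeR again called 0 of 10, and unadjusted p was under 0.05 for 1 lower gene, Epha7 (background 5.31%), and 1 higher gene, Ephb3 (background 6.3%). The median log2 change of the 10 genes was -0.75 against -0.51 over all genes tested, with 8 below 0 and 2 above.

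**Figure D1:**
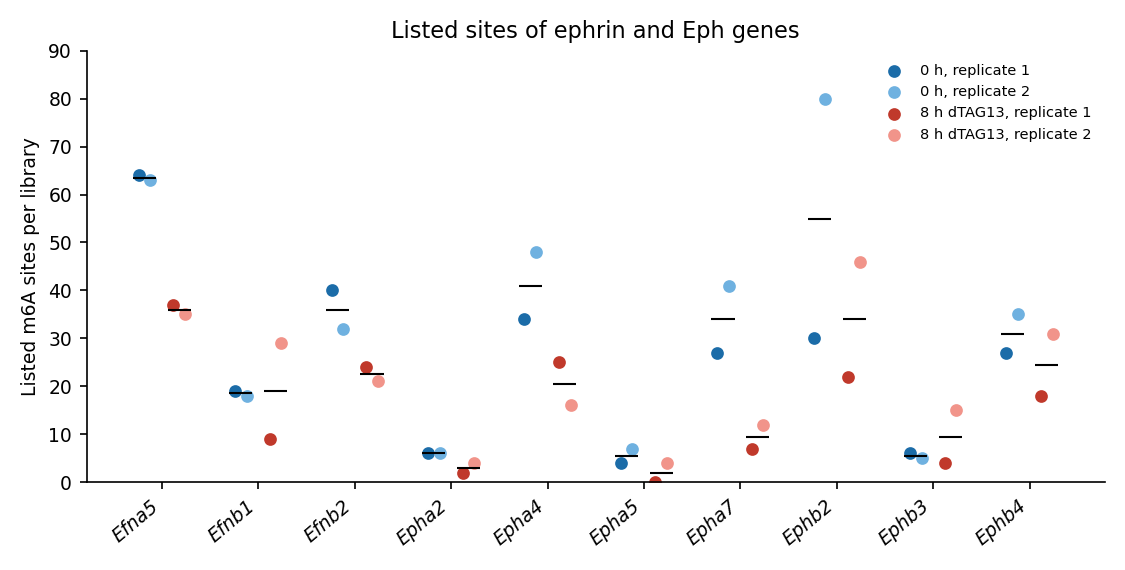
Number of listed m6A positions per gene in each library, with untreated (0 h) and dTAG13 (8 h) libraries as points and black bars at the group means (n = 2 each). Both dTAG13 points lie below both untreated points for Efna5, Efnb2, Epha2, Epha4 and Epha7, whereas Efnb1, Ephb2, Ephb3 and Ephb4 overlap and Epha5 has 0 positions in dTAG13 library 1.

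Efna5, which encodes ephrin-A5, a lipid-anchored ligand that repels retinal axons carrying EphA receptors, had the most positions of the 10 genes, 168 on the minus strand between chr17:62910050 and chr17:63188011. Untreated libraries 1 and 2 listed 64 and 63 of them, and dTAG13 libraries 1 and 2 listed 37 and 35. The replicates lay close together and the groups far apart, with means of 63.5 ± 0.707 and 36.0 ± 1.41 (SD, n = 2 each). edgeR gave a log2 change of -0.82 with an unadjusted p of 0.00374 and an adjusted p of 0.168, which did not pass. With the library total as an offset the change was -0.31 with an unadjusted p of 0.212. Strongly methylated positions, of at least 50%, numbered 12 and 11 without dTAG13 and 15 and 5 with it, which overlap. The median level of the listed positions was 23.9% and 22.1% in untreated organoids and 35.4% and 25.0% after dTAG13.

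The listed positions of Efna5 were gathered at the 3' side, where 94.6% of them lay within 5000 nt of the 3'-most listed position and the median gap between neighbours was 19 nt. Its densest 500-nt window, chr17:62910336-62910833, held 29 positions, of which the 4 libraries listed 18, 11, 7 and 12 in the order untreated 1 and 2, dTAG13 1 and 2. In that window 10 positions were listed in at least 2 libraries, and 4 were listed in all 4 libraries, which only 6 positions of the 10 genes were.

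**Figure D2:**
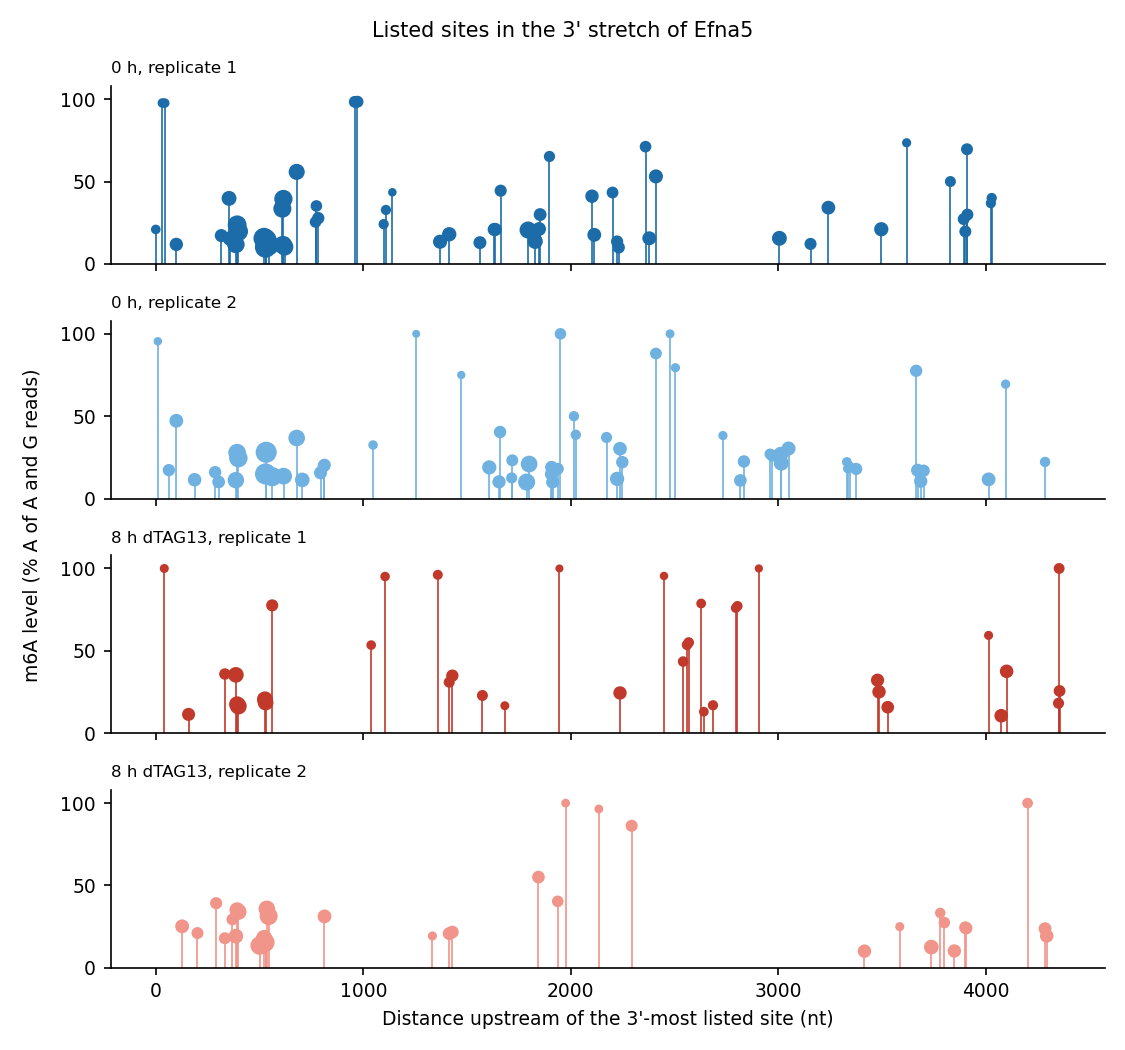
Level of each listed Efna5 position against its distance upstream of the 3'-most listed position in the 4 libraries. Only the 3' stretch of the gene is drawn, and point area grows with the square root of the reads. The 4 positions listed in all 4 libraries, at 386 to 529 nt, have levels between 10.2% and 35.4%.

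The first of these, chr17:62910436, had the largest mean difference of these 4. Its level was 11.8% and 11.2% in untreated libraries 1 and 2 (753 and 564 reads) and 35.4% and 19.2% in dTAG13 libraries 1 and 2 (449 and 333 reads). The Wilson 95% intervals, which cover counting error only, were 9.71% to 14.3% and 8.83% to 14.0% without dTAG13 and 31.1% to 39.9% and 15.3% to 23.8% with it. Both treated libraries were thus above both untreated ones, but they also differed from each other beyond counting error. The untreated levels lay just above the 10% listing limit, and only positions listed in all 4 libraries were tested. A lower level at this position could therefore hardly have been seen. The difference of 15.8 percentage points had an unadjusted p of 0.0206 and an adjusted p of 0.354 in the quasi-binomial model, whose dispersion was moderated with limma. It was 7.72 points without dTAG13 library 1 and 23.9 points without dTAG13 library 2.

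The neighbouring positions lie 6 nt apart and can be read by the same fragments, so they are not independent of it. At chr17:62910442 the level was 23.7% and 27.9% without dTAG13 (1037 and 768 reads) and 17.5% and 35.2% with it (514 and 401 reads). At chr17:62910448 it was 19.7% and 24.5% without dTAG13 (1156 and 946 reads) and 16.4% and 34.0% with it (603 and 535 reads). At both, dTAG13 library 1 was the lowest of the 4 and dTAG13 library 2 the highest, so the treated pair enclosed the untreated pair. The mean differences were 0.542 and 3.09 percentage points, with adjusted p of 0.997 and 0.952 in the same limma-moderated model. The order of the treated libraries was the opposite at chr17:62910436, where library 1 was the higher.

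The deepest Efna5 position listed in all 4 libraries was chr17:62910579, with 1783 and 1735 reads without dTAG13 and 472 and 708 with it. Its level was 10.2% and 14.9% in untreated organoids and 18.6% and 14.97% after dTAG13. Here too the untreated levels were near the 10% listing limit, which left little room for a fall to be listed. Untreated library 2 and dTAG13 library 2 were nearly equal, and the mean difference of 4.27 percentage points had an adjusted p of 0.837 in the limma-moderated model. With the reads of these 4 positions summed, Efna5 had a difference of 5.73 percentage points, an unadjusted p of 0.0440 and an adjusted p of 0.330.

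Other Efna5 positions of higher level were listed without dTAG13 only. The position chr17:62910729 had 55.9% and 36.8% in the untreated libraries (512 and 593 reads), and chr17:62912460 had 53.1% and 88.0% (273 and 117 reads). Neither was listed in a dTAG13 library, where a position can be missing because its level, its A reads or its coverage was below the listing limits. Over all positions in genes, 20066 of the 25086 that both untreated libraries listed were likewise in neither dTAG13 library. The opposite also occurred, as chr17:62911479 was listed in both dTAG13 libraries, at 34.9% and 21.7% (146 and 175 reads), and in no untreated one.

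Efnb1 encodes ephrin-B1, a transmembrane ligand whose gene lies on the X chromosome. It had 66 positions on the plus strand between chrX:98179910 and chrX:98192545, and the libraries listed 19 and 18 without dTAG13 but 9 and 29 with dTAG13. The treated libraries lay on either side of the untreated ones, and edgeR gave a log2 change of 0.04 and an adjusted p of 0.978. Positions with a level of at least 50% numbered 7 and 6 without dTAG13 but 4 and 6 with dTAG13.

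The Efnb1 position listed in all 4 libraries, chrX:98192155, lay 390 nt upstream of the 3'-most one. Its level was 30.4% and 33.0% without dTAG13 (46 and 297 reads) and 45.7% and 43.9% with it (197 and 246 reads). Both treated libraries were higher and the groups did not overlap, although the interval of untreated library 1, with the fewest reads, ran from 19.1% to 44.8%. The difference of 13.1 percentage points had an unadjusted p of 0.0257 and an adjusted p of 0.393 in the limma-moderated model. Among the other positions that both untreated libraries listed with at least 20 reads, chrX:98191468 had the highest mean level, with 36.3% and 18.2% (262 and 225 reads), and it was listed in neither dTAG13 library.

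Efnb2 encodes ephrin-B2, a transmembrane ligand of EphB receptors known from the dorsal retina and from arteries. Its 105 positions lay on the minus strand between chr8:8667495 and chr8:8711049, with 53.3% of them within 1000 nt of the 3'-most. Untreated libraries 1 and 2 listed 40 and 32, and dTAG13 libraries 1 and 2 listed 24 and 21. The groups did not overlap, and edgeR gave a log2 change of -0.68, an unadjusted p of 0.0374 and an adjusted p of 0.212, or -0.17 with an unadjusted p of 0.597 with the offset. Positions with a level of at least 50% numbered 15 and 5 without dTAG13 and 9 and 7 with it, which overlap.

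The Efnb2 position chr8:8667523, listed in all 4 libraries, was the only position of the 6 that was lower after dTAG13. Its level was 31.0% and 34.2% without dTAG13 (168 and 292 reads) and 17.9% and 23.6% with it (195 and 225 reads). The groups did not overlap, and the difference of -11.8 percentage points had an unadjusted p of 0.0260 and an adjusted p of 0.393 in the limma-moderated model. In the densest window of the gene, chr8:8667997-8668469, the adjacent positions chr8:8668055 and chr8:8668049 went with opposite groups. The former was listed in both untreated libraries, at 32.4% and 29.4% (68 and 136 reads), and the latter in both dTAG13 libraries, at 16.3% and 10.6% (80 and 596 reads).

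**Figure D3:**
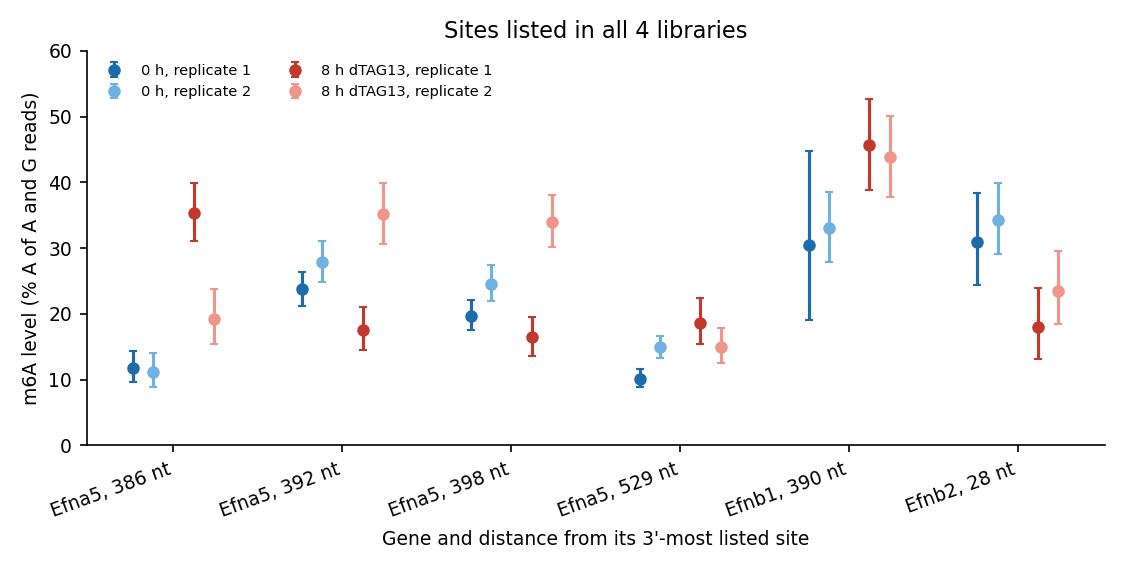
Level of the 6 positions listed in all 4 libraries, with Wilson 95% intervals that cover counting error only, untreated (0 h) beside dTAG13 (8 h). The Efnb2 position at chr8:8667523 is lower in both dTAG13 libraries, the Efna5 position at chr17:62910436 and the Efnb1 position are higher in both, and at chr17:62910442 and chr17:62910448 the dTAG13 libraries lie on either side of the untreated ones.

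Over these 6 positions, which all had at least 20 reads in every library, 0 passed an adjusted p of 0.05 in the limma-moderated model, against 2.2% of 2321 positions lower and 0.0862% higher. Of the 6, 1 was lower (background 5.95%) and 2 were higher (background 3.4%) at an unadjusted p under 0.05. Without overlap between groups, 1 was lower (background 19.4%) and 3 were higher (background 17.8%), of which chr17:62910579 only narrowly. limma on log2 odds also called 0, whereas Fisher's exact test on reads summed over replicates, which leaves out the spread between replicates, called 4. Summed per gene, 0 of 3 genes passed an adjusted p of 0.05 (background 4.53% lower and 0.0% higher of 1016 genes). At an unadjusted p under 0.05, 0 of 3 were lower (background 10.2%) and 1, Efna5, was higher (background 3.64%). No receptor gene had a position listed in all 4 libraries.

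Epha2, a receptor best known from epithelia and the lens, had 15 positions on the plus strand between chr4:141043925 and chr4:141056567. The libraries listed 6 and 6 without dTAG13 and 2 and 4 with it, with a log2 change of -0.97 and an adjusted p of 0.392 in edgeR. The level of chr4:141055906 was 100% and 96.6% in the untreated libraries, from 56 and 29 reads. At chr4:141056546 the untreated libraries differed widely, with 16.3% and 68.2% (86 and 66 reads). Neither position was listed after dTAG13, like 20066 of the 25086 positions in genes that both untreated libraries listed.

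Epha4, a receptor that binds ephrins of both classes and guides axons, had 111 positions on the minus strand between chr1:77343875 and chr1:77483752. The libraries listed 34 and 48 without dTAG13 and 25 and 16 with it, and positions of at least 50% numbered 13 and 22 without it and 9 and 5 with it. Neither count overlapped between groups, and edgeR gave a log2 change of -0.996 in the number listed, an unadjusted p of 0.0219 and an adjusted p of 0.185. With the offset the change was -0.48 with an unadjusted p of 0.126. The median level of the listed positions was 40.0% and 39.6% in untreated organoids and 32.1% and 36.0% after dTAG13.

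In the densest window of Epha4, chr1:77344068-77344546, the libraries listed 8 and 13 positions without dTAG13 and 1 and 4 with it. One of these, chr1:77344131, had levels of 46.1% and 57.0% in the untreated libraries (102 and 86 reads). Further upstream, chr1:77345842 had 91.2% and 99.4% (34 and 168 reads). Both were missing from both dTAG13 tables. So were 6083 of the 7145 positions in genes that both untreated libraries listed at a mean level of at least 50%. The position that both dTAG13 libraries listed, chr1:77344807, was weakly methylated, with 11.9% and 10.9% there (67 and 46 reads) and 16.5% in untreated library 2 (115 reads).

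Epha5, a receptor for ephrin-A ligands on retinal and other axons, had 15 positions, as many as Epha2, on the minus strand between chr5:84204942 and chr5:84565082. The libraries listed 4 and 7 without dTAG13 and 0 and 4 with it, and no position was listed more than once. The median level was 100% in each of the 3 libraries that listed the gene, from few reads: 16 to 55 at the positions read as fully A. The log2 change in number was -1.40 with an adjusted p of 0.457 in edgeR. It was -0.45 without dTAG13 library 1, and no fold can be given without dTAG13 library 2, since dTAG13 library 1 lists no position of the gene.

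Epha7, a receptor of neural tissue, had the lowest ratio of listed positions, treated over untreated, among the 10 genes. Its 85 positions lay on the plus strand between chr4:28813333 and chr4:28967482, and the libraries listed 27 and 41 in the absence of dTAG13 but 7 and 12 in its presence. The means were 34.0 ± 9.90 and 9.5 ± 3.54 (SD, n = 2 each). The ratio was 0.279, with an edgeR log2 change of -1.83, an unadjusted p of 0.00397 and an adjusted p of 0.168. Positions of at least 50% numbered 11 and 23 without dTAG13 but 5 and 8 with dTAG13. The positions listed after dTAG13 had a median level of 91.7% and 74.7%, above the 37.1% and 53.8% of the untreated libraries. These treated medians rest on only 7 and 12 positions. Median reads per position were 58 and 55 without dTAG13 and 34 and 64.5 with it, and the part of depth was not tested. At chr4:28821051, the only Epha7 position that both untreated libraries listed, replicates did not resemble each other, with 100% from 27 reads and 17.5% from 40 reads.

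Ephb2, a receptor of the ventral retina in the pair of gradients with ephrin-B, had 160 positions on the minus strand between chr4:136374965 and chr4:136498915. The libraries listed 30 and 80 without dTAG13 and 22 and 46 with it, so replicates differed more than the groups did, and edgeR gave a log2 change of -0.69 and an adjusted p of 0.470. Its positions were spread along the gene, and 26.3% lay within 5000 nt of the 3'-most. The densest window, chr4:136381516-136382010, held 29 positions, of which 7 and 12 were listed without dTAG13 and 2 and 16 with it.

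Ephb2 held 2 positions that met the rule of listing in both untreated libraries and in neither dTAG13 library. Their absence after dTAG13 is part of that rule. Over all positions in genes, both untreated libraries listed 7145 with a mean level of at least 50%. Of these, neither dTAG13 library listed 6083. At chr4:136498539 the untreated libraries had 77.6% and 86.8% (205 and 258 reads), and at chr4:136381929 they had 98.8% and 66.7% (80 and 195 reads). A further position, chr4:136381784, was at 100% in both, from 39 and 90 reads. Positions nearby were nevertheless listed after dTAG13. The level of chr4:136498626 was 51.1% in untreated library 2 (90 reads) and 46.4% and 60% in the dTAG13 libraries (56 and 35 reads). The level of chr4:136381923, 6 nt from chr4:136381929, was 20.2% in untreated library 2 (188 reads) and 11.8% and 35.8% in the dTAG13 libraries (110 and 134 reads).

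Ephb3, a receptor that acts beside Ephb2 in axon guidance, had 30 positions on the plus strand between chr16:21023726 and chr16:21041919. The libraries listed 6 and 5 without dTAG13 and 4 and 15 with it, and no position was listed in more than 1 library. The higher mean after dTAG13 came from library 2, and edgeR gave a log2 change of 0.77 and an adjusted p of 0.538.

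Ephb4, the receptor of ephrin-B2 on veins, had 100 positions on the plus strand between chr5:137348441 and chr5:137372708. The libraries listed 27 and 35 without dTAG13 and 18 and 31 with it, and 9 and 9 against 8 and 10 with a level of at least 50%, with an edgeR log2 change of -0.34 and an adjusted p of 0.564 for the number listed. Median levels stayed within a narrow range, 32.6% and 34.4% without dTAG13 but 36.3% and 37.3% with dTAG13. The neighbours chr5:137356092 and chr5:137356098 were at 35.0% and 39.9% (163 and 158 reads) and at 38.4% and 28.1% (159 and 153 reads) in the untreated libraries and were listed in neither dTAG13 library. At chr5:137370407 the level was 12.6% in untreated library 1 (119 reads) and 11.7% and 25.0% in the dTAG13 libraries (111 and 48 reads).

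Most positions of the 10 genes were seen in a single library. Of the 855, 779 (91.1%) appeared in 1 table, 60 in 2 tables, 10 in 3 tables and 6 (0.702%) in all 4, where all positions in genes gave 91.4% in 1 library and 0.146% in all 4. The median number of reads per listed position was 86 and 97 for the untreated pair against 69 and 102 for the treated pair. The strongest levels rested on the fewest reads. Positions with a level of at least 90% had median reads of 40 and 32 without dTAG13 and 24 and 31 with it, and 61.7%, 75.4%, 80.6% and 70.2% of them had fewer than 50 reads. Positions with a level of 10% to 20% had median reads of 206.5 and 185 without dTAG13 but 110.5 and 146 with dTAG13.

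The positions listed in both libraries of a group are the better supported ones. There were 37 in the untreated pair, spread over 8 genes, and 15 in the dTAG13 pair. Of the 37, 11 (29.7%, Wilson 95% interval 17.5% to 45.8%) were also listed in at least 1 dTAG13 library, where all positions in genes gave 20.0% of 25086. By mean untreated level, the count was 5 of 7 at 10% to 20%, 6 of 18 at 20% to 50% and 0 of 12 at 50% or more (interval up to 24.2%). Over all positions in genes the shares in these ranges were 29.3%, 16.5% and 14.9%. The 12 strong positions had median reads of 64.5, fewer than the 238.5 and 165.5 of the lower ranges, and the part of depth in this order was not tested. In the other direction, 11 of the 15 positions of the dTAG13 pair (73.3%) were listed in an untreated library, where all positions in genes gave 31.2%. The shares in both directions also move with how many positions the other group lists.

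**Figure D4:**
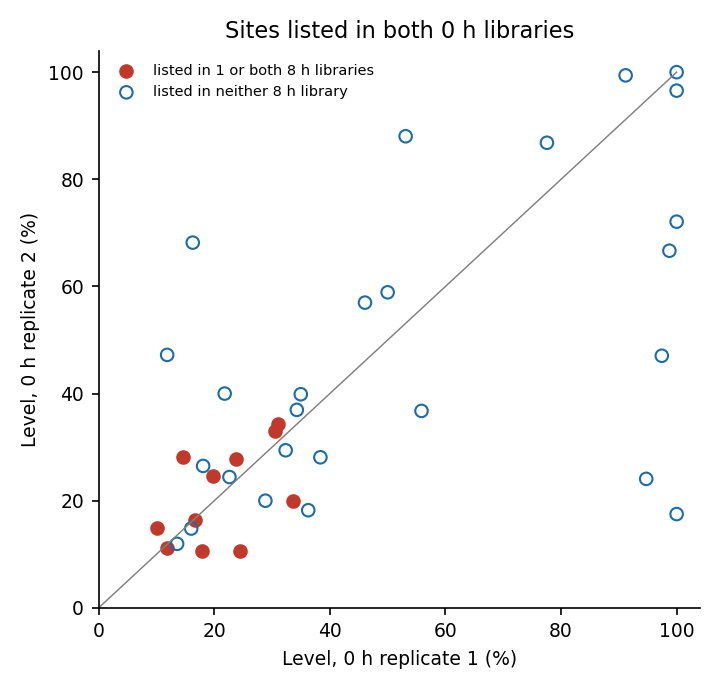
Untreated levels of the positions listed in both untreated libraries, split by whether a dTAG13 library also listed them. With a mean untreated level of at least 50%, 0 of 12 were listed after dTAG13. The counts were 6 of 18 at 20% to 50% and 5 of 7 at 10% to 20%. Over all positions in genes the shares in these ranges, from the highest level down, were 14.9%, 16.5% and 29.3%.

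Recovery was also counted from single libraries. Of the 179 positions with at least 50 reads in untreated library 1, 16.2% (Wilson 95% interval 11.5% to 22.3%) were listed in untreated library 2, 4.47% in dTAG13 library 1 and 12.3% in dTAG13 library 2. Over all positions in genes these shares were 11.1%, 6.00% and 6.38%. The interval for dTAG13 library 2, 8.26% to 17.9%, overlapped that for the untreated replicate. Of the 233 such positions of untreated library 2, 13.7% were listed in untreated library 1, 6.87% in dTAG13 library 1 and 9.01% in dTAG13 library 2. All positions in genes gave 10.7%, 5.74% and 6.17%. Counted from the treated side, positions of dTAG13 library 1 were listed at 9% and 16% in the untreated libraries and at 15% in dTAG13 library 2. All positions in genes gave 8.47%, 8.40% and 7.48%. Those of dTAG13 library 2 were listed at 12.3% and 10.4% in the untreated libraries and at 7.36% in dTAG13 library 1. All positions in genes gave 7.87%, 7.94% and 6.48%. Treated positions were thus not listed more in the treated replicate than in both untreated libraries, in the members or over all genes. Such a share also moves with the number of positions that the second library lists, which was lower in both dTAG13 libraries. The part of that number in these shares was not tested. Untreated library 1 had 38 positions with at least 50 reads and a level of at least 50%. Of these 38, 6 were listed in untreated library 2, 0 in dTAG13 library 1 (interval up to 9.18%) and 2 in dTAG13 library 2. Over all positions in genes these shares were 15.1%, 4.06% and 4.37%. At this level 0 of 19 positions of dTAG13 library 1 were listed in dTAG13 library 2, and 0 of 37 the reverse. All positions in genes gave 3.91% and 2.95%. At positions listed in both libraries of a pair, levels differed by a median of 8.85 percentage points within the untreated pair and 13.2 within the dTAG13 pair. Between an untreated and a treated library this median was 7.68 to 10.7 percentage points, from 9 to 24 shared positions. These medians lay below that of the dTAG13 pair (15 positions) and on both sides of that of the untreated pair (37 positions). Over all positions in genes the medians were 9.67 within the untreated pair, 8.28 within the dTAG13 pair and 9.33 to 9.66 between groups.

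Gene coverage, the depth signal that the tables give per gene, was compared on the log2 scale after each library was centred on its median. Coverage could be compared in 9 genes, since Epha5 was not listed in dTAG13 library 1, and of these 1, Efna5, was lower in both dTAG13 libraries than in both untreated ones (background 29.2%), and 2, Efnb1 and Epha2, were higher in both (background 17.0%). In the coverages as deposited, without centring, 2 were lower in both, Efna5 and Epha4 (background 28.1%), and 0 were higher (background 10.1%). With limma, 0 of 9 passed an adjusted p of 0.05 (background 0.0%), and at an unadjusted p under 0.05 1 gene was lower (background 8.34%) and 0 were higher (background 4.4%).

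Efna5 was that gene. Untreated libraries 1 and 2 gave it a coverage of 221 and 209, dTAG13 libraries 1 and 2 one of 111 and 171, and the log2 change was -0.56 ± 0.21 (SE, n = 2 each), with an unadjusted p of 0.0365 and an adjusted p of 0.373 in limma. The lower coverage stood beside the lower number of listed positions in Efna5, and the part of depth in that number was not tested. Epha4 had 99.7 and 116 without dTAG13 and 87.8 and 77.7 with it, with a log2 change of -0.30 ± 0.27 (SE) and a limma adjusted p of 0.650. Epha7, the gene with the lowest ratio of listed positions, had overlapping coverages of 53.8 and 72.6 without dTAG13 and 47.6 and 66.2 with it, with a log2 change of -0.07 ± 0.22 (SE).

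The coverages as deposited overlapped between groups in the other genes. Coverage without and with dTAG13 was 114 and 121 against 102 and 180 for Efnb1, with a centred log2 change of 0.29 ± 0.23 (SE). It was 138 and 176 against 120 and 214 for Efnb2, with 0.12 ± 0.24 (SE). In the B-class receptors dTAG13 library 2 was above dTAG13 library 1 each time, at 113 against 56.1 for Ephb2, 68.7 against 42.1 for Ephb3 and 152 against 95.3 for Ephb4, and over 12520 genes the medians of these libraries were 110.9 and 82.4. The log2 changes of these 3 receptors lay between -0.09 and 0.13. Epha2 had coverages of 52.4 and 47.8 without dTAG13 against 49.0 and 60.2 with dTAG13, and a centred log2 change of 0.20 ± 0.21 (SE).

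The conversion rate is a value per gene rather than per position. A higher rate means fewer adenosines still read as A. Both dTAG13 libraries lay above both untreated ones in 5 of 9 genes, Efna5, Efnb1, Epha4, Epha7 and Ephb2 (background 40.9%), and below them in 0 of 9 (background 6.05%). On the log2 odds of the unconverted share, 9 of 9 genes had a fitted change below 0, with a median of -0.50 against -0.30 over all genes. limma called 0 of 9 at an adjusted p of 0.05 (background 0.0% in each direction). At an unadjusted p under 0.05, 2 were lower (background 11.2%) and 0 higher (background 1.06%).

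Efnb1 and Epha4 were these 2 genes. Efnb1 converted at 93.3% and 93.6% without dTAG13 and at 96.2% and 96.5% with it, and Epha4 at 95.2% and 96.3% without it and at 97.6% and 98.2% with it. The groups were apart in both. The log2 odds of the unconverted share changed by -0.90 ± 0.27 (SE, n = 2 each) in Efnb1 and by -1.07 ± 0.32 (SE) in Epha4, with limma adjusted p of 0.374 and 0.373. With each library centred on its median gene the changes were -0.58 (unadjusted p 0.0718) and -0.75 (unadjusted p 0.0554), so 0 of 9 genes were under 0.05 (background 4.13% lower, 3.37% higher). In Efnb1 the unconverted share over the gene was lower in both treated libraries. The position listed in all 4 libraries, chrX:98192155, had a higher level in both, and neither difference passed an adjusted p of 0.05.

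Ephb2 converted at 92.5% and 94.0% without dTAG13 and at 96.6% and 95.3% with it, a log2 change in odds of -0.80 ± 0.32 (SE) with a limma unadjusted p of 0.0543. Efna5 converted at 95.6% and 95.7% without dTAG13 and at 96.9% and 96.2% with it, with a log2 change of -0.37 ± 0.28 (SE), or -0.045 with centring. In Epha7 the rates were 96.1% and 96.0% without dTAG13 and 98.4% and 96.3% with it. Epha2 had the widest spread among treated libraries, 94.4% and 98.3%, and its log2 change of -0.16 and its mean unconverted share, 3.56% without and 3.64% with dTAG13, differ in sign. Over 12520 genes, the untreated libraries had median conversion rates of 95.8% and 96.2%, and the dTAG13 libraries had 96.9% and 96.7%. With each library centred on its median gene, the log2 odds changes of Epha2 (0.16), Ephb3 (0.069) and Ephb4 (0.052) lay above 0, and limma again called 0 of 9. The centred odds were lower in both dTAG13 libraries than in both untreated ones in 3 of 9 genes, Efnb1, Epha4 and Ephb2 (background 18.7%), and higher in 0 (background 21.4%).

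**Figure D5:**
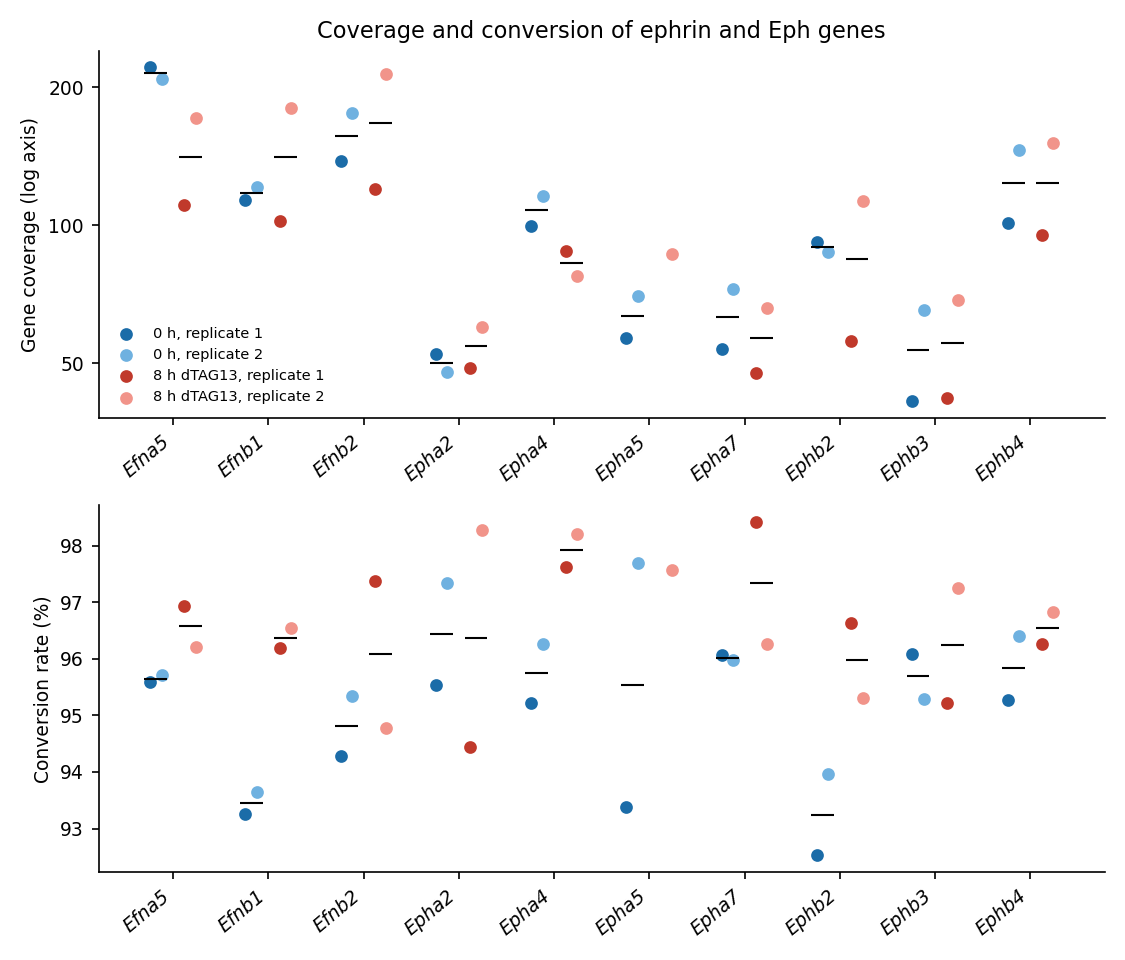
Gene coverage (log axis) and conversion rate in percent (axis not starting at 0) of the 10 genes in each library, with untreated (0 h) and dTAG13 (8 h) libraries as points and black bars at group means (n = 2 each). Efna5 and Epha4 have lower coverage, as deposited, in both dTAG13 libraries, and Efna5, Efnb1, Epha4, Epha7 and Ephb2 have higher conversion in both, while Epha5 lacks a value in dTAG13 library 1.

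Of the 12 other ephrin and Eph genes, 7 were listed in all 4 libraries and 1, Epha8, in none. Summed over these genes, the untreated libraries listed 84 and 132 positions and the dTAG13 libraries 88 and 89. In edgeR's test of site numbers 0 of the 8 that could be fitted passed an adjusted p of 0.05 (background 0.0% in each direction). At an unadjusted p under 0.05, 0 were lower (background 21.0%) and 0 higher (background 0.446%). The median log2 change was -0.20 against -0.51 over all genes tested. Efnb3, the remaining ephrin-B ligand, is an example, with 40 and 40 positions without dTAG13 and 37 and 35 with it, at coverages of 412 and 471 and of 259 and 371. For coverage 0 of 7 and for conversion 0 of 7 passed an adjusted p of 0.05 in limma (background 0.0% each). At an unadjusted p under 0.05, coverage was lower in 0 (background 8.34%) and higher in 0 (background 4.4%). The unconverted share was lower in 1 of 7, Efna2 (background 11.2%), and higher in 0 (background 1.06%).

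Signalling partners of the family, 30 genes that include adaptors, kinases and phosphatases, listed 864 and 950 positions without dTAG13 and 660 and 678 with it. For site numbers edgeR called 0 of 30 at an adjusted p of 0.05. At an unadjusted p under 0.05, 7 were lower (background 21.0%), namely Chn1, Rock1, Pak1, Ptpn11, Kalrn, Itsn1 and Fyn, with a median log2 change of -0.51 over the 30 against -0.51 over all genes. For coverage limma called 0 of 28. At an unadjusted p under 0.05, coverage was lower for 5 (background 8.34%), among them the phosphatase Acp1 (log2 change -0.86) and the Wnt pathway protein Dvl2 (-0.51), and higher for 1 (background 4.4%), the adaptor Nck1 (0.61). For conversion limma called 0 of 28, and 4 had a lower unconverted share at an unadjusted p under 0.05 (background 11.2%).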

How the data were processed

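The study deposited 1 GLORI site table for each of 4 mouse retinal organoid samples. Per the file headers, the authors give for each position the A plus G reads and the A reads as counts, without normalisation. The methylation level deposited by the authors is a fraction, equal to the ratio of these counts within 6e-06 at 100% of positions; each gene's conversion rate is another fraction. The authors also deposited a coverage signal per gene, not scaled to library depth, and a p-value per position. Replicates were not pooled. The submitters' processing notes name build mm10. Of 855 member positions, 208 lay within their gene in a RefSeq table of GRCm38, the assembly of that build, and the tables hold 2 contig names that belong to GRCm39. Positions are therefore printed as the tables list them, and exon, intron, UTR and surrounding sequence were not analysed here. The aligner and caller are not given in the sources used here.

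Positions that every library listed, with 20 or more reads in each, were tested for level. The model was a quasi-binomial logistic one per position, with Pearson dispersion moderated by squeezeVar of limma 3.58.1 and held at 1 or above, and a two-sided deviance F test. The same model was fitted to the reads summed per gene. Gene coverage (log2, centred on the median) and the log2 odds of the unconverted share were tested with limma. Listed positions per gene were tested with the quasi-likelihood test of edgeR 4.0.16 in R 4.3.3, in genes with a mean of at least 3, with no library scaling. Every p was adjusted by Benjamini-Hochberg over the whole table, with a threshold of 0.05. The fits of level per position, gene coverage and listed positions per gene were checked on simulated data. Totals were compared by exact permutation tests, and shares have Wilson 95% intervals. Reads may include PCR duplicates, so intervals cover counting error only.

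The text names the 10 genes and, for each, every position listed in all 4 libraries, up to 2 with the highest mean level in each group among positions shared by its libraries with at least 20 reads, and every position shared by 1 group alone with at least 50 reads and a mean level of 40% or more. Densest windows of 500 nt were found by script. Of the 12 other family genes and 30 partners, those past a threshold are named, except some that are not reported here, and Efnb3 was chosen after its values were seen. The genes, lists and tests were chosen with earlier results of these data known. Same-numbered libraries did not deviate together (correlations of 0.00227, 0.00829 and 0.0193 over genes or positions), so numbers were not taken to pair samples.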

Additional observations from a re-analysis of the deposited data

How the results depend on the processing

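Under the alternatives tried (other read minimums, limma on log2 odds, the library total as an offset, no centring, leaving out each library, the replicate block), none of the 10 genes or their positions passed an adjusted threshold, except that Fisher's exact test on summed reads called 4 of 6 positions. That test leaves out the spread between replicates and called 531 of 2321 positions in all (296 lower, 235 higher). With the replicate block in the model, 0 of 6 positions and 0 of 3 genes were called, and over the whole tables the calls went from 53 to 0 for positions and from 46 to 0 for genes. Leaving out any 1 library left 0 calls over all positions and 0 to 5 over all genes. Without centring, 15 genes of the series were called for coverage (9 lower, 6 higher), and with the offset 55 for site numbers (18 lower, 37 higher), against 0 each.

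The ratio of listed positions was 0.50 to 0.720 when a library was left out, and that of positions of at least 50% was 0.587 to 0.734. Counting only positions of at least 90% gave 0.798, with overlapping groups and an exact permutation p of 0.667. Signs turned, below any threshold, as follows, and the cause was not tested. Coverage of Ephb4 changed by -0.017 without centring. Centring conversion on the median gene gave 0.16 for Epha2, 0.069 for Ephb3 and 0.052 for Ephb4. For site numbers, Efnb1 gave -0.15 with a level minimum of 20%, -0.17 with limma and -0.023 with the replicate block, and Ephb4 gave 0.16 with the offset. Leaving out 1 library moved chr17:62910442 between -8.28 and 9.37 percentage points and chr17:62910448 between -5.71 and 11.9. Likewise, log2 coverage ran from -0.080 to 0.33 for Efnb2, -0.60 to 0.0045 for Epha4, -0.26 to 0.11 for Epha7, -0.38 to 0.20 for Ephb2, -0.17 to 0.43 for Ephb3 and -0.17 to 0.30 for Ephb4. Log2 odds of the unconverted share ran from -1.02 to 0.015 for Efnb2, -1.04 to 0.72 for Epha2 and -0.67 to 0.16 for Ephb3. Log2 site numbers ran from -1.03 to 0.65 for Efnb1, -1.32 to 0.18 for Ephb2 and -0.45 to 1.43 for Ephb3.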
